A study of Rattus norvegicus with 42 samples.

Results

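The drug-metabolizing enzymes of the neonatal rat hippocampus were taken as every transcript whose gene symbol begins with Cyp and a digit (Cyp51 left out), with Ugt, Sult, Fmo or Ephx and a digit, or with Gst, a class letter (a, k, m, o, p, t or z) and a digit, together with Por, Nr1i2 and Nr1i3. The rule used names only, no measured value. It gave 101 transcripts of 95 gene symbols among the 15516 transcripts of 14304 symbols in the count table. Whole hippocampi of male Sprague Dawley pups were sequenced at postnatal day 10 (P10), 72 h after 1 intraperitoneal injection at P7 of saline (VEH, n = 13), 75 mg/kg phenobarbital (PB, n = 14) or 200 mg/kg levetiracetam (LEV, n = 14), both antiseizure drugs. Each library was from 1 animal, and 1 animal per litter entered each group. All animals, controls included, were killed with an overdose of pentobarbital, itself a barbiturate, and perfused with buffered saline. They came in 2 orders, and their sample codes carry either 2 letters (animals 1 to 6) or 1 letter (animals 7 to 14) before the number. This form of the code was fitted as a batch. What it stands for is not given in the sources used here.

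Drug metabolism is usually described in phases. In phase I, cytochromes P450 (Cyp), which take electrons from cytochrome P450 reductase (Por), and flavin-containing monooxygenases (Fmo) add or expose a reactive group, and epoxide hydrolases (Ephx) open epoxides. In phase II, glutathione S-transferases (Gst), UDP-glycosyltransferases (Ugt) and sulfotransferases (Sult) attach a water-soluble group. In liver, PB is a classic inducer of many of these genes through the nuclear receptors CAR (Nr1i3) and PXR (Nr1i2). In brain, several of the same families turn over endogenous lipids such as cholesterol, retinoic acid and myelin lipids.

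The sequencing depth was similar in the 3 groups, with 9499492 to 14488134 estimated counts per VEH animal, 9586794 to 13140913 per PB animal and 10112050 to 12482915 per LEV animal. The enzymes took 0.134% to 0.16% of the counts of an animal. Neuron markers summed to 6490 to 8630 CPM (counts divided by library size, scaled to a common total) and astrocyte markers to 3680 to 5240, whereas the liver gene Alb had 1.07 to 21.2 normalised counts per animal and Apoa1 0 to 6.68. Markers of the choroid plexus, which lies against the hippocampus, ran from 17.1 to 7600 summed CPM over the animals of all groups. Of the 23 transcripts of skeletal muscle markers, 4 were tested. All 4 were lower in PB than VEH animals at an adjusted p under 0.05 by edgeR, against 3.46% of all transcripts. The skeletal muscle markers had 10.4 to 24.2 summed CPM in PB animals and 14.9 to 51.7 in VEH animals, so the ranges overlapped.

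Few enzymes were abundant. Of the 101 transcripts, 21 averaged under 1 count per animal, 25 averaged 1 to 10, 30 averaged 10 to 100, 21 averaged 100 to 1000 and 4 averaged over 1000. Counts grow with transcript length, so these classes state how precisely a transcript was measured and do not rank the enzymes. Of all counts on the enzymes, 31.9% fell on Sult4a1, 8.03% on Cyp46a1, 6.29% on Gstm1 and 5.95% on Por. A filter on low counts kept 58 transcripts for testing, among them 23 of 45 Cyp, 17 of 19 Gst, 4 of 12 Ugt, 4 of 8 Sult, 3 of 7 Fmo and 3 of 4 Ephx transcripts, Por and 3 of 5 transcripts of the receptors. The 43 that did not pass averaged 0.268 to 8.8 counts per animal, which limits what could be detected in them.

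Many of the genes lie in clusters on the rn6 genome. Gstm5, Gstm7, Gstm6, Gstm2, Gstm1 and Gstm4 share 1 stretch of chromosome 2 (chr2:210685338-210839243) and 6 Cyp4f genes one of chromosome 7 (chr7:14529483-15225400). The 7 Ugt1a symbols on chromosome 9 (chr9:95161157-95302823) have overlapping spans with a common end. Reads that paralogs or isoforms share were divided by estimation, and 24 of the 101 transcripts held fractional values, so levels within these clusters are uncertain.

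Promoters are shown for the genes that passed a test between treatments and have an entry, and for Gsta1, the largest change on the liver list below that had an unadjusted p under 0.05. Each window runs from 250 bases before to 50 bases after the annotated start (RefSeq, GRCr8, 5′ to 3′ on the gene's strand). The coordinates are chr2:198373334-198373633 for Gstm4, chr13:77747617-77747916 for Fmo1, chr5:133919593-133919892 for Cyp4x1 and chr9:31216483-31216782 for Gsta1, all on the minus strand. Capitals mark matches on either strand to 4 short motifs.
Gstm4: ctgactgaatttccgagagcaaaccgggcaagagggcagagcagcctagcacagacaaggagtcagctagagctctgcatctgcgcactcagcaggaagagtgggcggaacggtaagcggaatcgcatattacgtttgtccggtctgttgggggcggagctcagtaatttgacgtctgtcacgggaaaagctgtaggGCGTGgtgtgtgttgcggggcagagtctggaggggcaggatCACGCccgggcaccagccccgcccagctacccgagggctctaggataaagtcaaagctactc
Fmo1: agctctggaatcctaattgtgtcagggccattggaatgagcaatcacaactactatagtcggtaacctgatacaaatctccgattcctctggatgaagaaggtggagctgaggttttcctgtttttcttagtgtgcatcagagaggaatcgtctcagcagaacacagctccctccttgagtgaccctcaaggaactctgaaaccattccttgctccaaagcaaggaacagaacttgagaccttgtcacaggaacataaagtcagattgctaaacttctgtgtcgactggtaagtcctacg
Cyp4x1: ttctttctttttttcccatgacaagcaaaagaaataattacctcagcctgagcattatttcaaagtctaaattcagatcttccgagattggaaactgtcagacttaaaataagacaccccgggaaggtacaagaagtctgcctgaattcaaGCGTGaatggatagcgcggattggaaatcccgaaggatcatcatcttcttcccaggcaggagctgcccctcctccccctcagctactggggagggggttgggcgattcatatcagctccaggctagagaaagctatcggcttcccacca
Gsta1: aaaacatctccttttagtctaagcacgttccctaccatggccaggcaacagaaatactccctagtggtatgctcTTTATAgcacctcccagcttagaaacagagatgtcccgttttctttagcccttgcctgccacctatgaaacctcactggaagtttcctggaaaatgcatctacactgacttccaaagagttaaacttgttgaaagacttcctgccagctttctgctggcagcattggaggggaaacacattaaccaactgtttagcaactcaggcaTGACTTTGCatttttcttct
The motifs searched were AGGTCA, the half-site of nuclear receptors such as CAR and PXR, TGACNNNGC, the core of the antioxidant response element, GCGTG, the core of the xenobiotic response element, and TATAAA, a core promoter motif. Gstm4 held GCGTG 2 times and Cyp4x1 once. Gsta1 held TGACNNNGC once and TATAAA once, and the Fmo1 window held no match. Among the 79 enzyme genes with an entry (84 of the 101 transcripts), AGGTCA was found in 15 (19%), against 16.2% of all 33469 promoters in the table. TGACNNNGC was found in 10 (12.7%, against 12.1%), GCGTG in 27 (34.2%, against 29.7%) and TATAAA in 16 (20.3%, against 14.2%). Among the 42 with a tested transcript, AGGTCA was in 8 (19%), TGACNNNGC in 7 (16.7%), GCGTG in 22 (52.4%) and TATAAA in 5 (11.9%). The shares over all genes with a tested transcript were not computed. A match describes letters only.

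To find whether PB changed this class of genes in the hippocampus, PB animals were compared with VEH animals. A transcript was called at an adjusted p under 0.05 and a log2 fold change of 0.32 or more, up or down, the limits the study set. None of the 58 passed both limits, against 0.605% of all 13062 transcripts tested (79 transcripts), and DESeq2 also gave 0. Without the limit on the fold, 2 passed, Sult4a1 and Gstm4, both lower after PB, by 10.4% and 10.6%. This was 3.45% of the 58, against 5.39% of all transcripts (1.93% higher and 3.46% lower). At an unadjusted p under 0.05 there were 12 (20.7%, against 20.2% of all transcripts), 6 higher and 6 lower (10.3% each, against 9.79% and 10.4%). The median log2 fold change over the 58 was -0.025, against 0.005 over all transcripts. p-values throughout are from edgeR's quasi-likelihood test, adjusted by Benjamini-Hochberg over all 13062 transcripts.

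**Figure D1:**
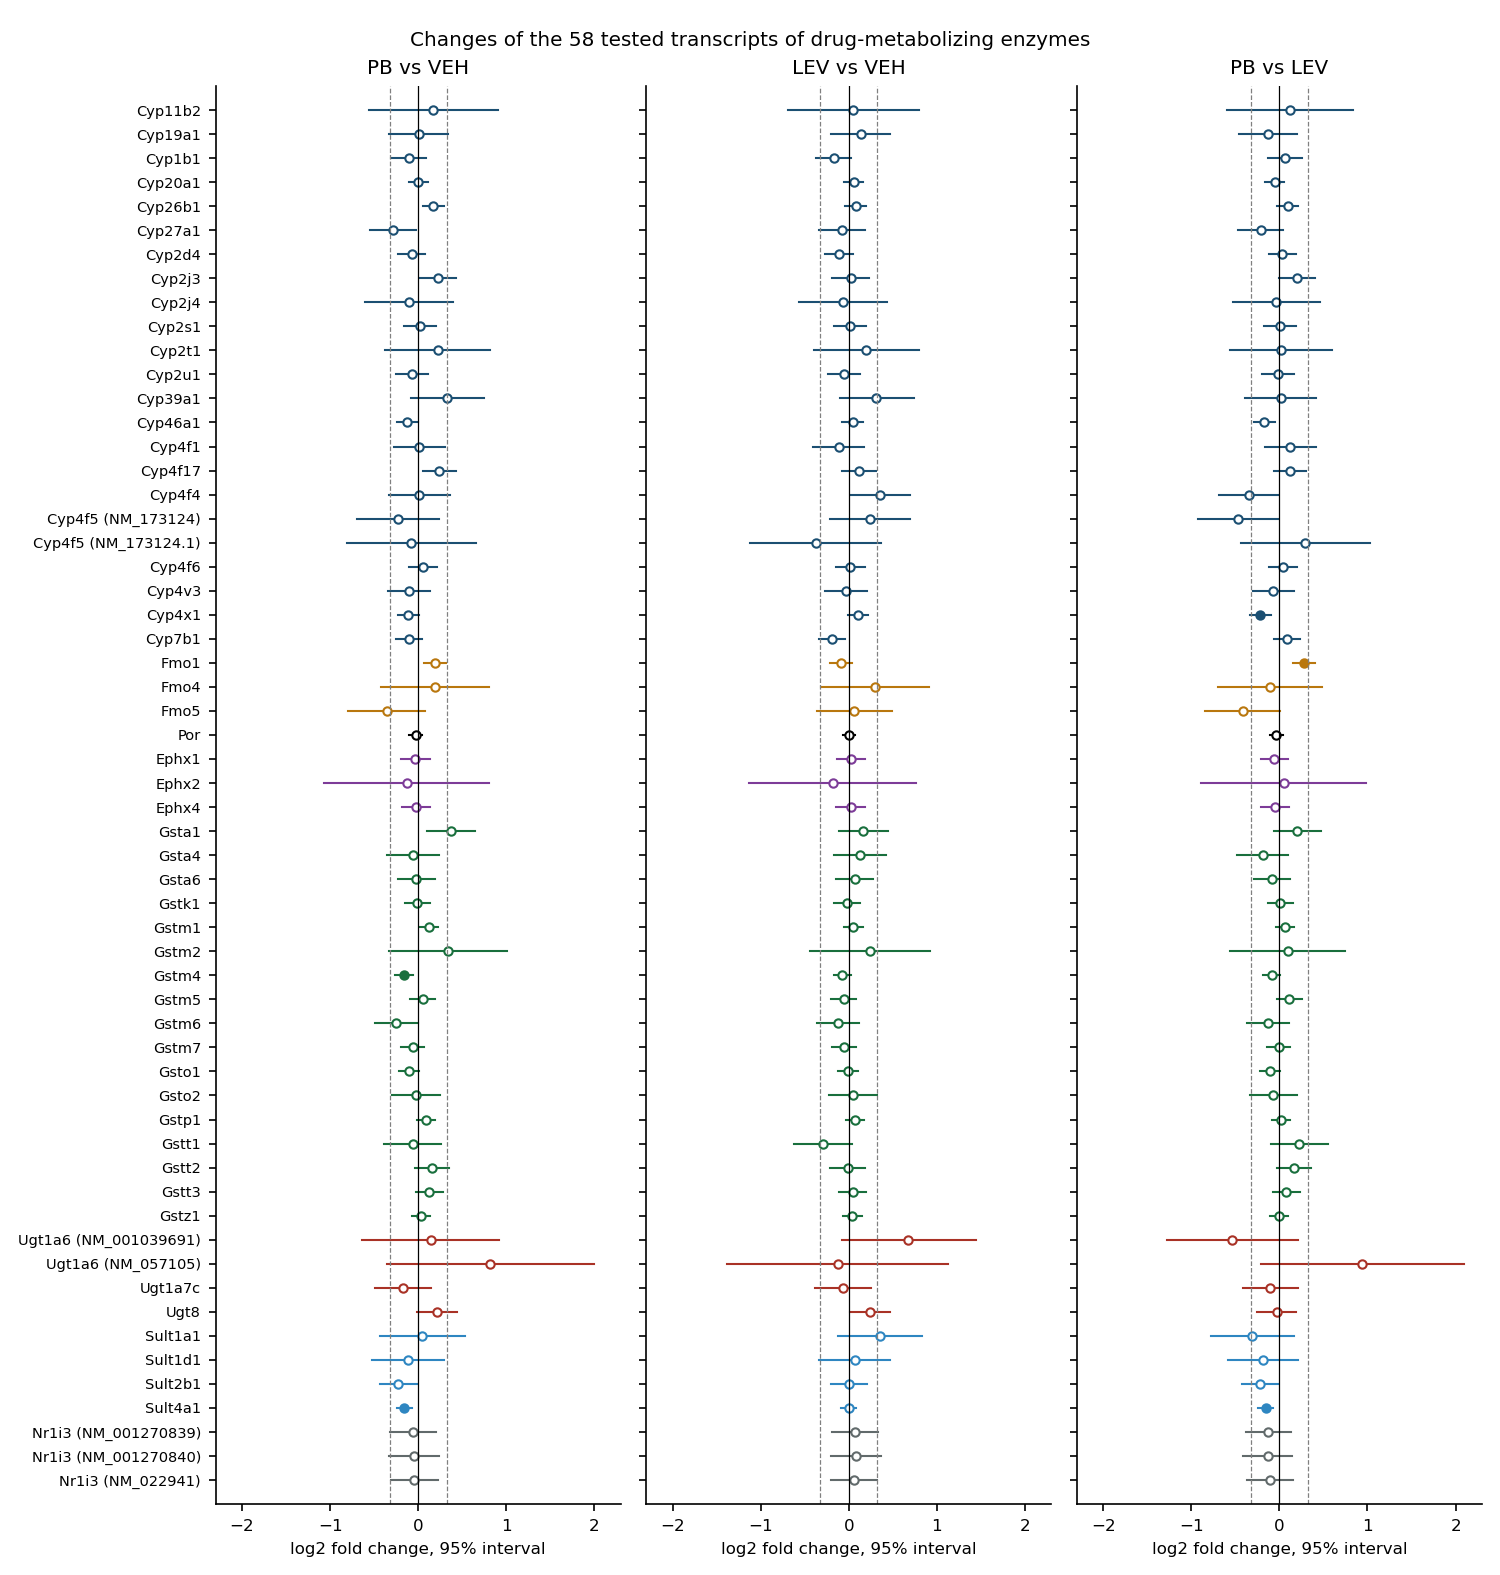
Log2 fold changes of the 58 tested transcripts (rows, coloured by family) in the 3 treatment comparisons, with 95% intervals; filled points have an adjusted p under 0.05 and dashed lines mark a log2 fold change of 0.32 in either direction. Filled points are Sult4a1 and Gstm4 in PB vs VEH, none in LEV vs VEH, and Fmo1, Sult4a1 and Cyp4x1 in PB vs LEV.

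Sult4a1 (NM_031641, chr7:124958546-124982562 on rn6) is a brain sulfotransferase without an established substrate, and carried the most counts of the class. Its normalised counts were 5168, 5611 and 6376 (lowest, median and highest) in VEH animals and 4242, 5155 and 5588 in PB animals. In LEV animals they were 4392, 5760 and 6016. All 14 PB animals lay below the VEH median, although the groups overlapped. The log2 fold change was -0.16 (SE 0.04, adjusted p = 0.0194), a fall of 10.4%, and it was -0.155 in the animals with two-letter codes and -0.163 in those with one-letter codes, and passed in neither alone. Neuron markers moved the same way, with a median of 7860 summed CPM in PB animals and 8260 in VEH animals, and 2 of their 14 transcripts fell (Camk2a and Stmn2), against 3.46% of all transcripts. Of the 23 transcripts of astrocyte markers 4 fell and 1 rose, against 3.46% and 1.93%, with a median of 4500 summed CPM in PB animals and 4700 in VEH animals. The part of these markers in the result was not tested. In bulk tissue, fewer cells of a type and less RNA per cell cannot be told apart. With the summed level of blood vessel markers as a covariate the change of Sult4a1 was -0.13 (adjusted p = 0.0959).

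Gstm4 (NM_001024304, chr2:210834018-210839243), a mu-class glutathione transferase, had 204, 241 and 264 normalised counts in VEH animals. It had 186, 216 and 247 in PB animals and 195.9, 225 and 271 in LEV animals. Its counts varied little between animals, with a coefficient of variation of 7.1% among VEH animals, the lowest of the 21 enzymes with mean counts of 100 to 1000 (median 12.6%). The log2 fold change was -0.16 (SE 0.05, adjusted p = 0.0409), with 13 of 14 PB animals below the VEH median. It passed in 28 of 41 fits that each left out 1 animal, and the adjusted p ran from 0.028 to 0.0783. With the blood vessel level as a covariate the adjusted p of Gstm4 was 0.0741. Of the neighbours in its cluster that have over 100 counts, Gstm1 had a log2 fold change of 0.12 (SE 0.05, adjusted p = 0.169), Gstm7 -0.06 (SE 0.07, adjusted p = 0.646) and Gstm5 0.05 (SE 0.07, adjusted p = 0.729), and none of the 3 passed the test. Of those with fewer counts, Gstm6 had 11 of 14 PB animals below its VEH median of 79.01. Gstm2 had 8 of 14 above its VEH median of 15.46. Neither passed.

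**Figure D2:**
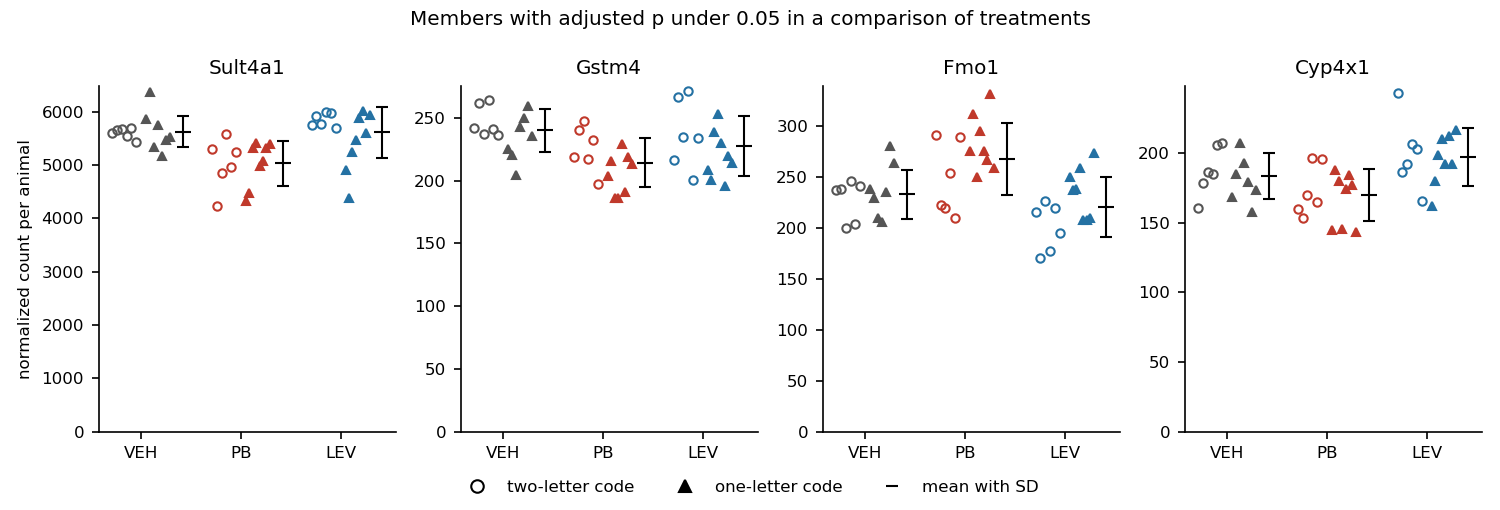
Normalised counts per animal (y axis from 0) of the 4 enzymes with an adjusted p under 0.05 in a treatment comparison, by group, with open circles for two-letter codes, triangles for one-letter codes and the mean with SD beside each group. For Sult4a1 the PB animals (4242 to 5588) lie lowest, and for Fmo1 13 of 14 PB animals lie above the LEV median of 218 while the ranges overlap.

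Among the P450s, the changes after PB were small. The log2 fold changes of the 23 tested Cyp transcripts ran from -0.29 (Cyp27a1) to 0.33 (Cyp39a1), with a median of 0.003, and none passed in the main fit. Cyp26b1, which clears retinoic acid, had 402, 541 and 644 normalised counts in VEH animals. It had 488, 623 and 708 in PB animals and 492, 560 and 681 in LEV animals. The log2 fold change in PB animals was 0.17 (SE 0.06, adjusted p = 0.0835), with 11 of 14 above the VEH median. With the choroid plexus level as a covariate it was 0.20 and passed, within the fold limit (adjusted p = 0.0210). Of the fits that each left out 1 animal, Cyp26b1 passed only in that without PB animal 5 (adjusted p = 0.0317). Cyp4f17, of the fatty acid hydroxylases of the Cyp4f cluster, had a log2 fold change of 0.24 (SE 0.09, adjusted p = 0.128).

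Several of the tested P450s act on cholesterol or its oxysterols. Cyp46a1, the neuronal cholesterol 24-hydroxylase, had 1243, 1394 and 1671 normalised counts in VEH animals and 1027, 1282 and 1489 in PB animals. Its log2 fold change was -0.12 (SE 0.06, adjusted p = 0.227). Cyp27a1, the sterol 27-hydroxylase, had 22.6, 29.7 and 45.1 normalised counts in VEH animals and 16.7, 26.6 and 40.7 in PB animals, a log2 fold change of -0.29 (SE 0.13, adjusted p = 0.198). Both were lower in most PB animals, 11 of 14 below the VEH median for each, and neither passed. The oxysterol hydroxylases Cyp7b1 and Cyp39a1 had log2 fold changes of -0.11 (SE 0.07, adjusted p = 0.442) and 0.33 (SE 0.21, adjusted p = 0.389).

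The flavin monooxygenase Fmo1 (NM_012792, chr13:80712887-80745096) had 200, 237 and 281 normalised counts in VEH animals, 209, 271 and 331 in PB animals and 171, 218 and 274 in LEV animals. PB animals ranked highest and LEV animals lowest by the median. Against VEH, the log2 fold change after PB was 0.19 (SE 0.06, adjusted p = 0.0564), with 11 of 14 PB animals above the VEH median. It passed the test with DESeq2 (adjusted p = 0.0382), and with DESeq2 after subtraction of the batch effects (adjusted p = 0.0337). By edgeR it passed with a mean of at least 50 counts as the filter (adjusted p = 0.0499). With the blood vessel level as a covariate Fmo1 also passed (0.23, adjusted p = 0.0458), and with the choroid plexus level it did not (0.18, adjusted p = 0.0729). Fmo4, its neighbour, had few counts. The transcript NM_144561 had 2.15, 10.1 and 19.3 normalised counts in VEH animals, 0, 11.9 and 23.4 in PB animals and 6.07, 9.9 and 19.6 in LEV animals. The log2 fold change after PB was 0.19 with an SE of 0.30 (adjusted p = 0.781), and its 95% interval, -0.42 to 0.80, holds changes in either direction. A further Fmo4 transcript, NM_144562, averaged 2.29 counts and was not tested. For it, 8 of 14 PB animals lay above the VEH median of 1.005 and 6 below. In a fit with no filter on low counts, NM_144562 did not reach an unadjusted p under 0.05 after PB. The study, with its own batch removal and DESeq2, lists Fmo4 among the genes most raised after PB. The fold change it gives is larger than the top of the interval found here for NM_144561. That list does not name the transcript.

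Ugt8, the galactosyltransferase that makes the galactolipids of myelin, had 342, 443 and 694 normalised counts in VEH animals, 248, 562.5 and 806 in PB animals and 402, 564 and 705 in LEV animals. Both drug groups had higher medians than VEH, and all 3 ranges overlapped. The log2 fold change was 0.21 (SE 0.11, adjusted p = 0.287) after PB and 0.24 (SE 0.11, adjusted p = 0.822) after LEV. These contrasts share the VEH animals.

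A list of 24 genes drawn up for the liver response to PB was compared with the hippocampus. It gives no direction for the single genes. The list holds 12 symbols of the count table, and the other 12, among them Cyp2b1 and Cyp3a1, were not analysed here. Of the 12, Cyp2c11, Cyp3a9, Ugt1a1, Ugt2b1, Gsta3 and Gsta5 averaged 4.95 counts or fewer and were not tested. The 7 transcripts of the other 6 genes gave 0 calls after PB, 0 after LEV and 0 between the drugs by edgeR, and 2, 0 and 0 at an unadjusted p under 0.05 (against 20.2%, 5.84% and 19.6% of all transcripts). The 2 were Gsta1 and Gstm1. The median log2 fold change after PB was 0.14.

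Por, the electron donor of the microsomal P450s, was the most tightly measured gene of this list. It had 902, 1031 and 1187 normalised counts in VEH animals, 920, 1002 and 1069 in PB animals and 873, 1028 and 1134 in LEV animals. The 3 ranges overlapped. The log2 fold change after PB was -0.03 (SE 0.04), and its 95% interval, -0.10 to 0.04, lies wholly within the fold limit.

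Ephx1, the microsomal epoxide hydrolase, gave 213, 262 and 342 normalised counts in VEH animals and 168, 254 and 316 in PB animals, with a log2 fold change of -0.03 (95% interval -0.19 to 0.13). Gsta1, an alpha-class transferase that the RefSeq table also lists under the older symbols Gsta3 and Gsta5, gave 129.8, 200.6 and 330.1 in VEH animals, 176, 270 and 441 in PB animals and 153, 243 and 335 in LEV animals. Its log2 fold change after PB was 0.37 (SE 0.14, 95% interval 0.10 to 0.64, adjusted p = 0.101), and 13 of 14 PB animals lay above the VEH median. It passed, at 0.38 and an adjusted p of 0.0479, in 1 alternative only, DESeq2 after subtraction of the batch effects. With the choroid plexus level as a covariate the value was 0.32 (adjusted p = 0.0953). Gstm1 gave 906, 1029 and 1182 in VEH animals and 954, 1057 and 1520 in PB animals.

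The remaining transcripts of the list were imprecise. Gstm2 had 5.86, 15.5 and 31.5 normalised counts in VEH animals and 0.97, 15.9 and 49.2 in PB animals, a log2 fold change of 0.34 (95% interval -0.34 to 1.01). The 2 transcripts of Ugt1a6, a phenol glucuronosyltransferase, had log2 fold changes of 0.14 (95% interval -0.63 to 0.92) and 0.81 (95% interval -0.35 to 1.99). These intervals hold both no change and a change of over 1.5-fold.

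**Figure D3:**
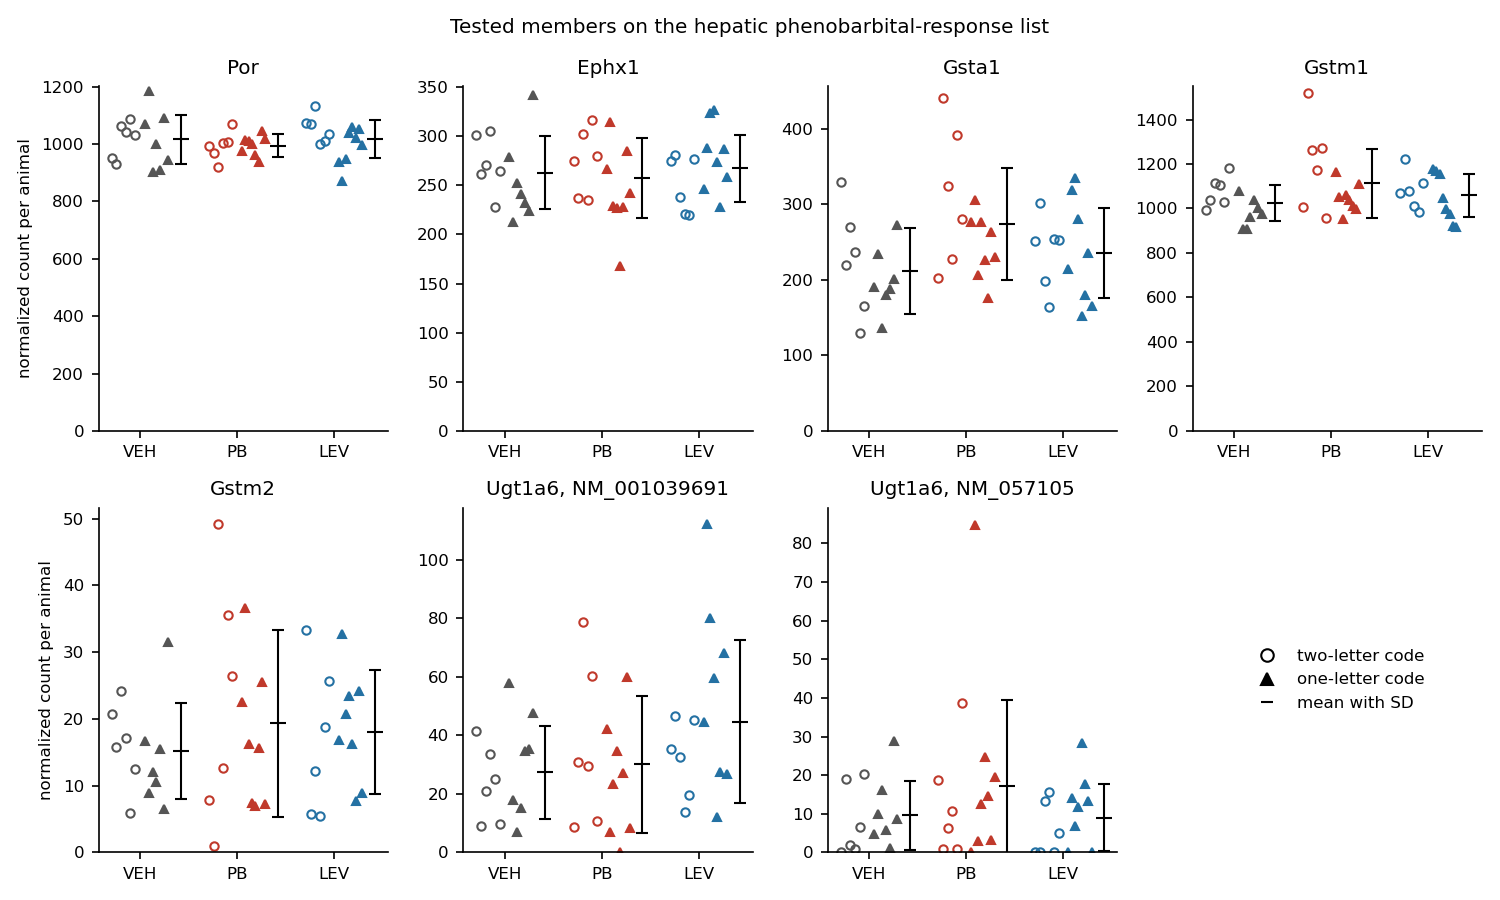
Normalised counts per animal (y axes from 0) of the 7 tested transcripts on the list for the liver response to PB, by group and form of sample code, with the mean and SD beside each group. The groups overlap in all 7 panels, and Gsta1 has the highest PB median relative to VEH (270 against 200.6) of the 4 genes with over 100 normalised counts.

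The receptors themselves had few counts. The 4 transcripts of Nr1i3 (CAR) share the span chr13:89586336-89591279, and summed to 30.1, 49.2 and 66.6 normalised counts in VEH animals, 31.4, 45.7 and 76.1 in PB animals and 39.8, 47.5 and 73.9 in LEV animals. Its 3 tested transcripts had log2 fold changes of -0.06 to -0.04 after PB (SE 0.13 to 0.14). Nr1i2 (PXR) averaged 6.9 counts and did not pass the filter. It had 0, 3.84 and 10.49 normalised counts in VEH animals, 3.16, 8.69 and 13.6 in PB animals and 2.08, 7.76 and 14.7 in LEV animals. In a fit with no filter on low counts the log2 fold change of Nr1i2 was 1.00 after PB (SE 0.32, adjusted p = 0.0545, 13 of 14 PB animals above the VEH median) and 0.83 after LEV (SE 0.32, adjusted p = 0.66, 12 of 14). Neither passed, and the contrasts share the VEH animals.

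How large a change could have been missed after PB was read from the 95% intervals of the 58 transcripts. The whole interval lay within the fold limit in both directions for 29 of them, within 1.5-fold for 45 and within 2-fold for 55. Among the 43 transcripts below the filter, the fit with no filter gave 1 with an adjusted p under 0.05, Ugt1a9 (0 counts in the 13 VEH animals, 18 in 4 of 14 PB animals and 8 in 2 of 14 LEV animals), against 4.32% of the 15515 transcripts of that fit.

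LEV animals were compared with VEH animals in the same fit. No enzyme passed, with or without the limit on the fold, against 0% and 0.00766% of all transcripts (1 transcript), and DESeq2 also gave 0. By unadjusted p under 0.05, edgeR gave 3 of 58 (5.17%, against 5.84% of all transcripts). These were Cyp7b1, Cyp4f4 and Ugt8. Cyp7b1 had 278, 325 and 411 normalised counts in VEH animals and 185, 291 and 377 in LEV animals, a log2 fold change of -0.20 (SE 0.07, adjusted p = 0.69). Cyp4f4, a leukotriene and fatty acid hydroxylase, had 4.77, 11.5 and 15.7 in VEH animals and 7.94, 14.45 and 25.1 in LEV animals, a log2 fold change of 0.36 (SE 0.17, adjusted p = 0.828). The median log2 fold change was 0.03, against 0 over all transcripts, and the 95% interval lay within the fold limit for 29 transcripts and within 2-fold for 54.

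A gene that passes for 1 drug only is not shown to differ between the drugs, so PB and LEV animals were compared directly. None of the 58 passed both limits, against 0.582% of all transcripts. Without the limit on the fold, 3 passed (5.17%, against 4.45% of all transcripts), Fmo1 higher (1.67% of all transcripts were) and Sult4a1 and Cyp4x1 lower (2.78%) after PB. At an unadjusted p under 0.05 there were 7 (12.1%, against 19.6%), of which Fmo1 was the only one higher after PB (9.45% of all transcripts were, and 10.2% were lower).

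Fmo1 differed by 0.28 on the log2 scale (SE 0.06, adjusted p = 0.00595), and 13 of 14 PB animals lay above the LEV median. The difference was 0.30 in animals with two-letter codes and 0.26 in those with one-letter codes, neither of which passed alone, and it passed in each of the 41 fits that left out 1 animal. With the level of blood vessel markers as a covariate it rose to 0.33 (adjusted p = 0.0113), past the fold limit. Cyp4x1 (NM_145675, chr5:133929532-133959448), a P450 found in brain, had 158, 185 and 207 normalised counts in VEH animals, 144, 172 and 197 in PB animals and 162, 195.5 and 243 in LEV animals. The groups were ordered PB, VEH, LEV by the median. The log2 difference of PB from LEV was -0.22 (SE 0.06, adjusted p = 0.0248), with 12 of 14 PB animals below the LEV median, and of the fits that left out 1 animal it was lost in that without PB animal 7 (adjusted p = 0.0548). Against VEH, Cyp4x1 had log2 fold changes of -0.11 (SE 0.06, adjusted p = 0.292) after PB and 0.11 (SE 0.06, adjusted p = 0.856) after LEV. Sult4a1 differed by -0.16 (SE 0.04, adjusted p = 0.0239), lost likewise without PB animal 7 (adjusted p = 0.0547). With the blood vessel level as a covariate the differences of Cyp4x1 (-0.17, adjusted p = 0.25) and Sult4a1 (-0.12, adjusted p = 0.27) did not pass, nor did either with all 14 VEH animals kept. Cyp46a1 differed by -0.17 (SE 0.06, adjusted p = 0.0806), and neuron markers had medians of 7860 summed CPM in PB and 8140 in LEV animals.

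No enzyme separated any pair of groups completely. The ranges of the groups overlapped for all 58 transcripts in each comparison, and 0.00766% of all transcripts did not overlap between PB and VEH animals, and 0% in the other comparisons. A test of whether a treatment effect differed between the forms of the sample code found no enzyme in any comparison (0.0689%, 0.842% and 0.023% of all transcripts for PB vs VEH, LEV vs VEH and PB vs LEV), and 4, 3 and 1 enzymes at an unadjusted p under 0.05 (against 11.1%, 12.8% and 6.91%).

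More enzymes differed between the forms of the sample code than between treatments, and so did more of all transcripts. At an adjusted p under 0.05 these were 30.2% of all transcripts by code form and 5.39% for PB vs VEH. With treatment in the model, 7 of the 58 transcripts passed both limits between one-letter and two-letter codes (12.1%, against 4.12% of all transcripts), 4 higher (against 1.67%) and 3 lower (against 2.45%) in one-letter animals, and 17 passed without the limit on the fold (29.3%, against 30.2%). Fmo4 had 6.64, 13.9 and 23.4 normalised counts in the 18 animals with two-letter codes and 0, 7.94 and 17.4 in the 23 with one-letter codes, a log2 difference of -0.87 (SE 0.24, adjusted p = 0.00499). Sult1d1, which sulfates catecholamines, had 8.22, 22.2 and 33.7 against 13.2, 33.4 and 57.8, a log2 difference of 0.61 (SE 0.17, adjusted p = 0.00423). Sult1a1, the phenol sulfotransferase, had 20.4, 51.0 and 109.8 against 14.3, 35.8 and 67.2, a log2 difference of -0.57 (SE 0.19, adjusted p = 0.0207). All 3 ranges overlapped, and the direction was not shared.

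Of the others past both limits, Gstt1 was lower in one-letter animals by a log2 difference of -0.40 (SE 0.13, adjusted p = 0.0163). The Nr1i3 transcripts NM_001270839 and NM_022941 were higher by 0.36 (SE 0.11, adjusted p = 0.00822) and 0.36 (SE 0.11, adjusted p = 0.0126), and these share reads. Cyp2j3 was higher by 0.32 (SE 0.09, adjusted p = 0.00303). Order of animals, litter and any difference in handling cannot be told apart from the form of the code.

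Choroid plexus markers varied widely between animals of each group, over 8.8 doublings of their summed level in all. With treatment and code form in the model, 6 of the 58 transcripts went with that level at an adjusted p under 0.05 (10.3%, against 4.97% of all transcripts), 5 rising (against 4.55%) and 1 falling (against 0.421%). The level comes from the same libraries, and the share of choroid plexus tissue in a dissection was not measured otherwise. Of its markers, Ttr alone ran from 9.21 to 81380 normalised counts, so the size of a doubling depends on this gene.

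Ephx1 rose by 0.053 on the log2 scale per doubling of the choroid plexus level (SE 0.007, adjusted p = 4.54e-08), with 228 normalised counts in the animal with the lowest level (LEV animal 12) and 316 in that with the highest (PB animal 5). Gstm2 rose by 0.22 per doubling (SE 0.03, adjusted p = 1.83e-06), with 7.71 and 35.6 in these animals. These 2 also passed in the animals with two-letter codes alone and with one-letter codes alone. Sult1a1 rose by 0.13 (SE 0.025, adjusted p = 0.000268), the Ugt1a6 transcript NM_001039691 by 0.17 (SE 0.04, adjusted p = 0.00441) and Gsta1 by 0.062 (SE 0.015, adjusted p = 0.00488). Taken alone, two-letter codes kept Sult1a1 (adjusted p = 0.0124) and one-letter codes kept Gsta1 (adjusted p = 0.0151). The Ugt1a6 transcript passed in neither (adjusted p = 0.234 and 0.0787). Cyp26b1 fell by 0.024 per doubling (SE 0.007, adjusted p = 0.0295), and it passed in neither code form alone, nor with the excluded VEH animal kept (adjusted p = 0.288). With Ttr left out of the level, all 6 passed with steeper slopes per doubling. These were 0.09 for Ephx1, 0.35 for Gstm2, 0.221 for Sult1a1, 0.318 for Ugt1a6, 0.113 for Gsta1 and -0.041 for Cyp26b1.

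**Figure D4:**
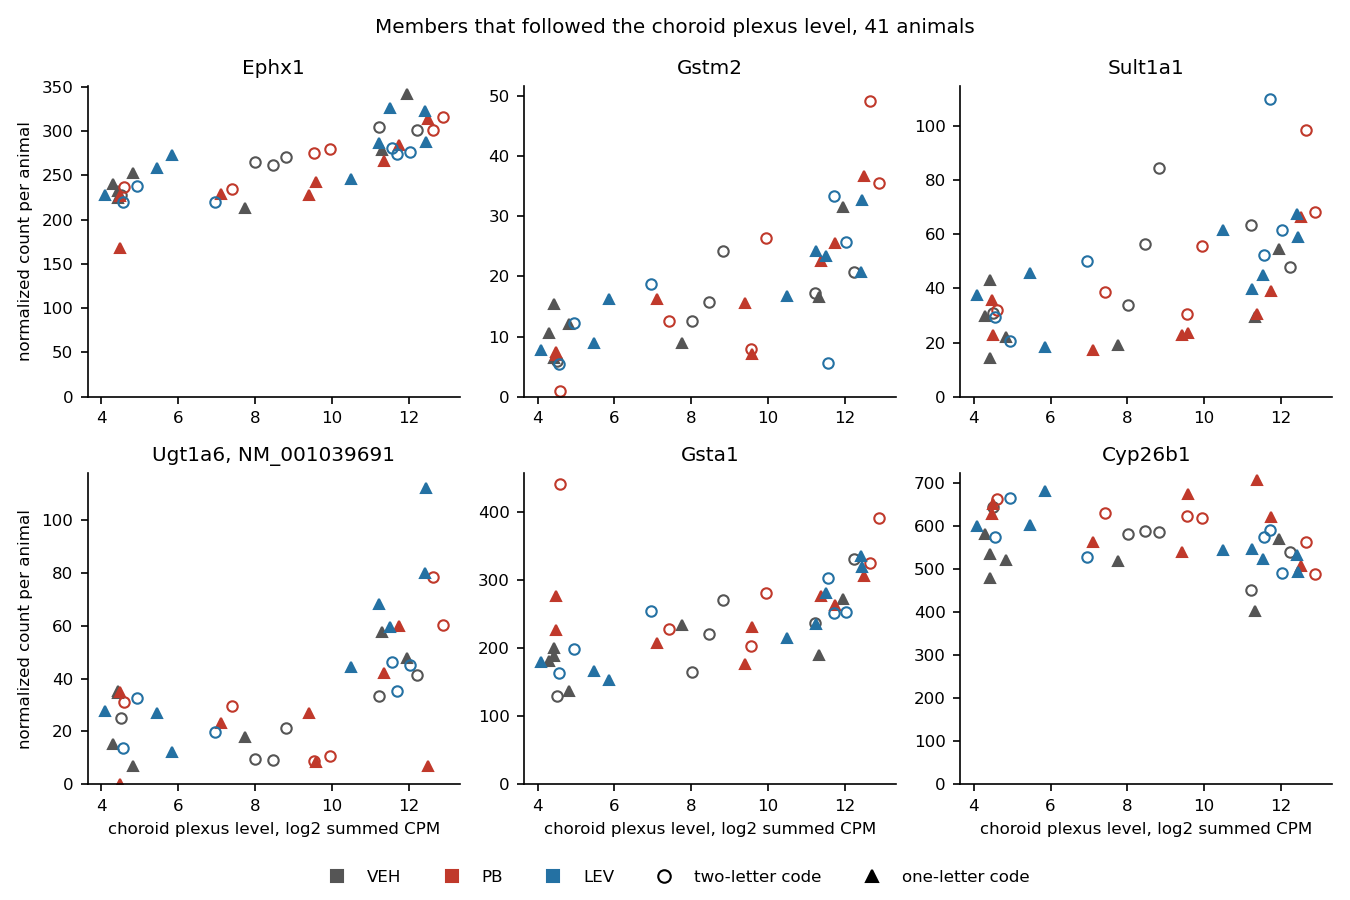
Normalised counts per animal (y axes from 0) against the choroid plexus level (log2 of the summed CPM of its markers, 4.09 to 12.89) for the 6 transcripts that went with it, in 41 animals coloured by treatment, with open circles for two-letter and triangles for one-letter codes. Ephx1 rises most evenly, from 228 normalised counts in the animal of lowest level to 316 in that of the highest, and Cyp26b1 falls from 600 to 488.

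Of the 7 tested transcripts on the liver list, 4 were among those that went with the choroid plexus level (Ephx1, Gstm2, Gsta1 and 1 of Ugt1a6). In log2 summed CPM, the median of the level was 8.01 for VEH, 9.57 for PB and 10.87 for LEV, with ranges that overlapped, and 0 of 16 choroid plexus marker transcripts passed between treatments by edgeR (0 at an unadjusted p under 0.05). The level of blood vessel markers, which varied little (9.03 to 9.48), went with 0 of the 58 transcripts by edgeR at an adjusted p under 0.05, against 0.98% of all transcripts, and with 10 at an unadjusted p under 0.05 (17.2%, against 16%). Its median was 9.32 for VEH, 9.245 for PB and 9.345 for LEV. Of 19 vessel marker transcripts, 5 were lower in PB than VEH animals at an unadjusted p under 0.05 by edgeR (against 10.4% of all transcripts), and 0 higher. Against LEV, 6 were lower (against 10.2%) and 0 higher, with 1 lower at an adjusted p under 0.05. In fits with this covariate, vessel level and treatment cannot be fully told apart.

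Genes around the pathway were read from lists of 4 kinds, again against the 5.39% of all transcripts with an adjusted p under 0.05 after PB. Of 18 tested transcripts of nuclear receptors and their cofactors, 2 rose and 1 fell, each within the fold limit. The aryl hydrocarbon receptor Ahr rose by 0.21 (SE 0.06, adjusted p = 0.0369) and the glucocorticoid receptor Nr3c1 fell by 0.14 on the log2 scale (SE 0.04, adjusted p = 0.0494).

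Of 18 transcripts of electron supply and haem synthesis, 1 fell, Cyb5r3, the reductase of cytochrome b5 (log2 fold change -0.15, SE 0.04, adjusted p = 0.0167). Of 23 drug transporters, 1 rose and 1 fell. These were the export pump Abcc5 (0.14, SE 0.04, adjusted p = 0.0182) and the peptide carrier Slc15a2 (-0.19, SE 0.05, adjusted p = 0.0153). Of 43 transcripts of other metabolizing enzymes, 1 fell, past both limits. This was Nnmt, which methylates nicotinamide, with a log2 fold change of -0.58 (SE 0.18, adjusted p = 0.0453) against VEH and -0.61 (SE 0.18, adjusted p = 0.0381) against LEV. After LEV, none of the 4 lists had a transcript with an adjusted p under 0.05 by edgeR, and they had 2, 0, 3 and 0 transcripts, in the order given, at an unadjusted p under 0.05, against 5.84% of all transcripts.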

How the data were processed

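Hippocampal RNA was extracted with Trizol, and libraries were made with the NEBNext Ultra RNA kit and sequenced as 150 bp paired-end reads. Whether counting used strand is not stated. The authors aligned reads with STAR 2.7.3a to rn6 and deposited estimated counts per RefSeq transcript from the Partek E/M step, not normalised (13.7% of values are not whole). A deposited DESeq2 table holds the authors' own p-values, ratios and group means and was not used.

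The estimated counts were rounded and tested with edgeR 4.0.16 in R 4.3.3 (quasi-likelihood test, TMM, filterByExpr by treatment), with treatment and the form of the sample code in 1 fit over 41 animals. 13062 transcripts passed the filter. A transcript was called at an adjusted p under 0.05 and a log2 fold change of 0.32 or more, up or down. The VEH animal that the labels mark as excluded (animal 7) was left out. Normalised counts are counts divided by the effective library size and multiplied by its mean. Marker levels are the log2 of summed CPM. The 95% intervals are from the fit. The self-test on simulated counts recovered most of the changes put in. Its treatment changes were larger than the fold limit, so it does not show how well smaller ones are found. Alternatives used DESeq2 1.42.0, other filters, batch terms, covariates and samples.

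Treatments were balanced within litter, but which animals were littermates is not given, so litter was not in the model. Whether animals of 1 number share a litter is not known. Their deviations did not go together, and the number was not used as a block in the main fit. Animals are separate pups, and p-values measure the spread between them.

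Genes named with values were those with an adjusted p under 0.05 in a treatment comparison, the 8 of smallest p against VEH for each drug, the 12 with the highest VEH counts, the liver list, Por, the receptors, Fmo4, and the 6 largest among those called by code form and marker level. Of the other lists, the 2 genes of smallest p after PB and those with an adjusted p under 0.05 were open to naming. The members and lists were chosen with earlier results of these data known. A few results are not reported here.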

Additional observations from a re-analysis of the deposited data

Results flagged for a closer look

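The VEH animal that the labels mark as excluded (animal 7) entered no main comparison. The paper left out 1 control sample because its average coverage was far higher, and its genomic coverage far lower, than in the other samples. Of the 58 tested enzymes, it lay above the range of the 13 VEH animals for 18, below it for 12 and within it for 28. For 6 it lay above the highest VEH animal by at least the fold limit (0.32 on the log2 scale), with values normalised over all 42 libraries. Its Cyp2u1 count was 307.4, against 66.5 to 125.6 in the 13 animals. Gstt3 had 156.9 (79.7 to 113.2), Cyp1b1 219.6 (72.5 to 149.6) and Cyp4f17 123.4 (53.6 to 94.3). Cyp4f4 had 24.05 (4.76 to 15.7) and the Ugt1a6 transcript NM_001039691 76.33 (7.03 to 57.7). Among the 12 below the range, Gstt1 had 2.09 (11.1 to 34.8) and Cyp4x1 87.8 (157.5 to 206.9). These values are 1 library with no replicate.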

How the results depend on the processing

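Counts of enzymes with both limits for PB vs VEH (0) became 1 with no filter on low counts (Ugt1a9) and 1 after subtraction of the batch effects and DESeq2 (Gsta1), and that for PB vs LEV (0) became 1 with the vessel level as covariate (Fmo1). Without the fold limit, PB vs VEH (2) gave 1 with no batch term, 1 with a batch-by-treatment term, 4 after the subtraction, 0 in either code form alone, 1 with all 14 VEH animals and 1 with the vessel level. The 1 with the vessel level was Fmo1, and neither Sult4a1 nor Gstm4 passed there. Fmo1 joined the 2 with DESeq2 and with a mean of at least 50 counts, and Cyp26b1 joined them with the choroid plexus level as covariate. PB vs LEV (3) gave 1 in two-letter codes alone, 0 in one-letter codes alone, 1 with all 14 VEH animals and 1 with the vessel level. Enzymes that went with the choroid plexus level (6) were 3 in each code form alone, an alternative added after the data were seen, and those that went with the vessel level (0) were 10 with all 14 VEH animals. Leaving out 1 animal at a time gave 1 to 4 for PB vs VEH and 1 to 4 for PB vs LEV without the fold limit, 5 to 7 for the choroid plexus level, and 0 to 0 for the others. Gstm4 was lost without VEH animal 2, 4, 11, 12, 13 or 14 or PB animal 1, 4, 6, 7, 9, 10 or 12, and Fmo1 passed in PB vs VEH without VEH animal 2, 4, 6 or 13, PB animal 2, 3 or 5 or LEV animal 2. The cause was not tested. With animal number as a replicate block, PB vs VEH gave 1 without the fold limit and no other count moved by over 1.5 times. Over 40 same-numbered pairs r ran from -0.332 to 0.329 (10 over 0.1), and 7 of 41 animals correlated best with their own number. Of 5394 values of named transcripts under an alternative, 141 changed sign and had an adjusted p of at least 0.05 in the main fit. Only values that did not pass in the main fit entered this count of sign changes. Depth limits the 43 transcripts that did not pass the filter.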
